A study of Homo sapiens with 9 samples.

Results

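The BCL2 family genes examined here are BCL2, BCL2L1, BCL2L2, MCL1, BCL2A1, BAK1, BID, BIK, BMF and BCL2L11, taken by gene name from the 62666 genes of the deposited tables. All 10 were found, and for MCL1 and BCL2L1 the 8 and 15 listed transcripts were read as well, out of 252876. The study followed gene expression along a breast cancer progression series of human mammary epithelial lines, with 3 libraries of polyadenylated RNA per line. MCF10A is a non-tumorigenic, immortalised line, MCF10AT1 was derived from it with an activated HRAS gene and stands for a stage before malignancy, and MCF10Ca1a, of the same lineage, forms tumours in mice. MCF10A and MCF10Ca1a were kept in 5% horse serum and MCF10AT1 in 2.5%, so serum and line cannot be told apart in comparisons with MCF10AT1. The medium of all lines was DMEM/F12 with sodium bicarbonate, insulin, L-glutamine, human epidermal growth factor, hydrocortisone and cholera toxin, and insulin and the growth factor are survival signals that every group received. Each stage is a single line, and nothing in the labels says that the 3 libraries came from separate cultures, so p-values measure only the spread between these libraries, which may be technical.

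Proteins of the BCL2 family decide whether the outer membrane of mitochondria is opened, the step that releases cytochrome c and starts the caspase cascade. Pro-survival members (BCL2, Bcl-xL from BCL2L1, Bcl-w from BCL2L2, MCL1 and BFL1 from BCL2A1) hold the pore-forming members BAX and BAK in check. BH3-only members (BIM from BCL2L11, BID, BIK and BMF) are induced or activated by stress and bind the pro-survival proteins or the pore formers, and in mammary epithelium BIM and BMF are known for the death of cells that lose their attachment.

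Library totals were 64.2 to 69.5 M estimated counts for MCF10A, 62.9 to 68.1 M for MCF10AT1 and 32.9 to 35.2 M for MCF10Ca1a. All 6 epithelial marker genes (keratins 5, 8, 14 and 18, EPCAM and CDH1) lay above 1 TPM (the count of a transcript per its length, scaled to a fixed sum per library) in every line, with summed levels of 1773 to 2466 TPM in MCF10A, 2668 to 3038 TPM in MCF10AT1 and 2152 to 2233 TPM in MCF10Ca1a. Of 5 immune markers 1 was above 1 TPM in each line, CD68, with summed levels of 8.35 to 13.0, 2.65 to 2.71 and 30.2 to 33.1 TPM, while PTPRC, CD3E and LYZ had at most 2 counts in a library. The 4 endothelial markers summed to 0.674 to 0.901, 0.868 to 1.32 and 15.6 to 20.8 TPM, with PECAM1 carrying the MCF10Ca1a level, KDR at 0 to 1 count there against 30 to 42 in MCF10A, and CDH5 and VWF at 3 counts or fewer in every library. The 6 fibroblast markers summed to 6.39 to 7.18, 27.6 to 31.5 and 1.89 to 2.29 TPM, with DCN carrying the MCF10AT1 level, COL1A1 lower there (0.961 ± 0.103 against 3.06 ± 0.467 TPM in MCF10A, SD, n = 3), PDGFRA and LUM at no more than 15 and 5 counts in a library, with mean counts of 12.3 and 4.33 in MCF10AT1 against 1 and 0.667 in MCF10A, and COL1A2 and COL3A1 at 2 counts or fewer. The part of these genes' cell types in the results was not tested. In bulk RNA, fewer cells of a type and less RNA per cell cannot be told apart.

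Among the 10 genes, MCL1 was the most abundant in all 3 lines and BCL2L1 the second by mean level. TPM is a level per transcript length, so it can be set side by side between genes. MCL1 stood at 361 ± 34.0 TPM (SD, n = 3) in MCF10A, 297 ± 6.70 TPM (SD, n = 3) in MCF10AT1 and 295 ± 8.57 TPM (SD, n = 3) in MCF10Ca1a. In MCF10A the order below it was BCL2L1, BAK1, BID, BCL2L2, BIK, BCL2L11, BCL2, BCL2A1 and BMF. Neighbours whose replicate ranges overlapped there were BCL2L1 with BAK1 and BCL2L2 with BIK, but within each MCF10A library their order held. MCF10AT1 kept the order down to BCL2 and had BMF above BCL2A1. The ranges of BAK1 and BID overlapped there, though BAK1 was above BID within each library. In MCF10Ca1a BID stood above BAK1 without overlap, at 32.1 ± 0.928 against 21.2 ± 0.499 TPM (SD, n = 3), and BIK and BCL2L2 overlapped. BCL2L1 lay above the other members but MCL1 within every library, and its range overlapped that of BAK1 in MCF10A only. BAX, a pore-forming gene outside the 10, stood above BCL2L1 in MCF10A and MCF10AT1, as given with the further relatives.

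**Figure D1:**
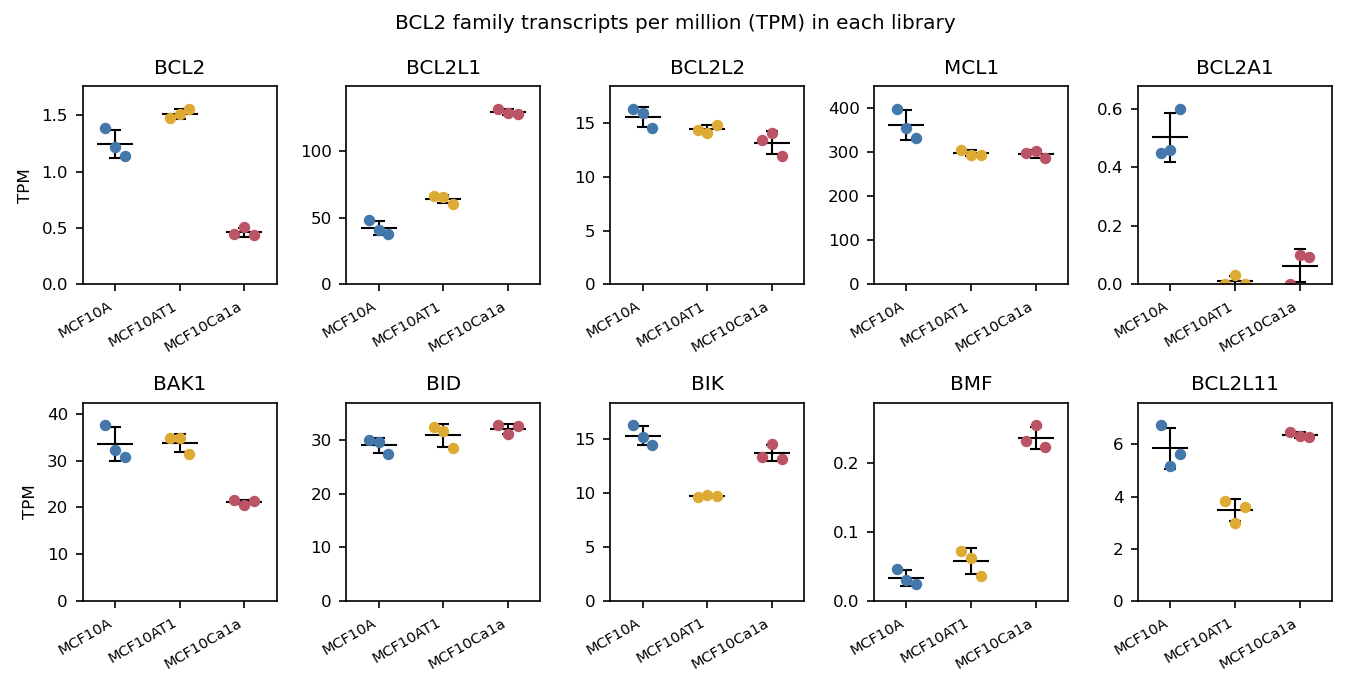
Level of each BCL2 family gene in TPM (vertical axes, each starting at 0) by cell line; points are single libraries, dashes and bars are the mean and SD of 3 libraries. BCL2L1 and BMF were highest in MCF10Ca1a, BCL2 and BAK1 were lowest there, and BCL2A1 lay near 0 outside MCF10A.

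Changes between lines were tested on the estimated counts with edgeR's quasi-likelihood test over all genes, and a gene is called where its Benjamini-Hochberg adjusted p is under 0.05. All 10 members were among the 17910 genes that passed the filter on low counts, BCL2A1 through MCF10A alone, so that it had to differ to be tested at all. In MCF10AT1 against MCF10A, 7 of the 10 were called, 4 higher and 3 lower, where 61.6% of all genes tested were called, 29.8% higher and 31.8% lower. In MCF10Ca1a against MCF10A, 9 were called, 2 higher and 7 lower, where 80.9% of all genes were, 39.0% higher and 41.9% lower. In MCF10Ca1a against MCF10AT1, 9 were called, 4 higher and 5 lower, where 78.4% of all genes were, 38.0% higher and 40.3% lower. The totals called lie near the background. The 7 lower calls in MCF10Ca1a against MCF10A include BCL2A1, which had to differ, and BID and BIK, which are not called on log2(TPM + 1), so nothing particular to the family is read from the directions.

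The sizes of change were likewise close to those of other genes. The median absolute log2 change of the members was 0.51 in MCF10AT1 against MCF10A, where all genes tested had 0.38. It was 0.61 against 0.84 in MCF10Ca1a against MCF10A and 0.65 against 0.76 in MCF10Ca1a against MCF10AT1. The signed medians of the members were 0.14, -0.27 and -0.04 in these comparisons, and those of all genes were -0.00383, -0.05 and -0.04. At least 2-fold changes among called members numbered 0 higher and 1 lower in MCF10AT1 against MCF10A. The 1 lower was BCL2A1, which had to differ to be tested. Of all genes 18.0% passed the same rule (9.36% higher, 8.64% lower). They numbered 2 higher (BCL2L1 and BMF) and 2 lower (BCL2 and again BCL2A1) in MCF10Ca1a against MCF10A, where 42.9% passed (21.2% higher, 21.7% lower). Against MCF10AT1, MCF10Ca1a had 1 higher (BMF) and 1 lower (BCL2), where 37.7% passed (18.2% higher, 19.5% lower). The replicate CPM values (counts scaled to library size) of the lines did not overlap for 8, 10 and 9 members, where 65.4%, 81.5% and 81.9% of all genes did not overlap. BCL2A1 is among the 8 and the 10. The comparisons share libraries and are not independent of each other.

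**Figure D2:**
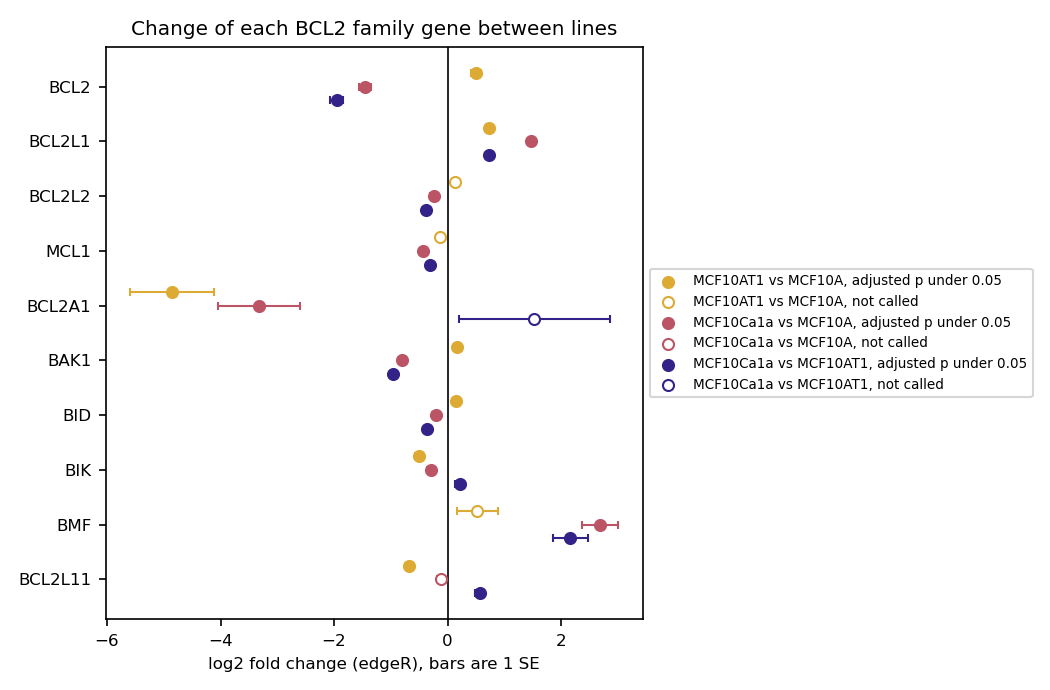
Fitted log2 fold change (horizontal axis) of each BCL2 family gene in the 3 comparisons, with bars of 1 SE; filled points have an adjusted p under 0.05 by edgeR. BCL2L1 lay to the right of 0 in all 3 comparisons, and BCL2 lay at 0.50, -1.45 and -1.96.

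Among the pro-survival genes, BCL2L1 rose from line to line and was the only one of the 5 called higher in every comparison. BCL2L1 (ENSG00000171552.14; GRCh38 chr20:31664452-31723989, minus strand) was listed at 47.9, 40.7 and 37.5 TPM in MCF10A, 66.2, 65.0 and 60.5 TPM in MCF10AT1, and 131, 128 and 127 TPM in MCF10Ca1a. The 3 lines did not overlap, and the highest MCF10A library lay below the lowest MCF10AT1 library. On the count scale, edgeR gave a log2 change of 0.74 (SE 0.0569, adjusted p 8.477e-08) in MCF10AT1 against MCF10A. The change was 0.74 (SE 0.0567, adjusted p 3.052e-08 by edgeR) in MCF10Ca1a against MCF10AT1 and 1.47, or 2.78-fold (SE 0.0577, adjusted p 1.841e-11 by edgeR), in MCF10Ca1a against MCF10A.

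MCL1, whose short-lived protein is removed by the proteasome unless it is stabilised, moved less. MCL1 (ENSG00000143384.14; GRCh38 chr1:150574551-150579738, minus strand) was listed at 398, 354 and 331 TPM in MCF10A, 305, 293 and 294 TPM in MCF10AT1, and 297, 303 and 286 TPM in MCF10Ca1a. MCF10A was the highest line without overlap, and the others overlapped in TPM. In CPM the 3 lines separated, at 837 ± 25.5, 766 ± 10.2 and 622 ± 14.7 CPM (SD, n = 3). MCL1 fell by 0.43 on the log2 scale (SE 0.0531, adjusted p 4.337e-06 by edgeR) in MCF10Ca1a against MCF10A and by 0.30 (SE 0.0530, adjusted p 0.0001386 by edgeR) in MCF10Ca1a against MCF10AT1. The second call is lost on log2(TPM + 1), where limma gave a change of -0.01 (adjusted p 0.9026) while the median of all genes moved by 0.13 on that scale. In MCF10AT1 against MCF10A the log2 change was -0.13 (SE 0.0529, adjusted p 0.05095 by edgeR), just past the threshold, and the DESeq2 Wald test put it at -0.14 (adjusted p 0.002936). On log2(TPM + 1) limma called it too, at -0.27 (adjusted p 0.00487).

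Set against each other over all transcripts of each gene, MCL1 held a smaller share of the summed pro-survival TPM from line to line and BCL2L1 a larger one. The summed TPM of the 5 pro-survival genes was 420.2 ± 40.2 in MCF10A, 377 ± 8.76 in MCF10AT1 and 438 ± 10.6 in MCF10Ca1a (SD, n = 3). MCL1 held 85.9% ± 0.134 of that sum in MCF10A, 78.8% ± 0.412 in MCF10AT1 and 67.4% ± 0.449 in MCF10Ca1a (SD, n = 3). BCL2L1 held 9.99% ± 0.298, 16.9% ± 0.557 and 29.5% ± 0.611 (SD, n = 3).

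The ratio of MCL1 to BCL2L1 TPM was 8.31, 8.68 and 8.82 in the MCF10A libraries, 4.61, 4.51 and 4.85 in MCF10AT1, and 2.26, 2.36 and 2.24 in MCF10Ca1a. The lines did not overlap in this ratio, which needs no scaling between libraries. Both genes together held 95.9%, 95.8% and 96.9% of the sum in the 3 lines, so BCL2, BCL2L2 and BCL2A1 were a small part of it throughout. The ratio compares messages and not proteins, and it was given no test of its own. Shares and ratio use all transcripts of a gene, also those not known to encode the long form. The long forms of BCL2L1 were at 21.3, 40.2 and 56.4 TPM in the 3 lines, out of 42.1, 63.9 and 129 TPM for the gene. The long form of MCL1 was at 282, 228 and 254 TPM.

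**Figure D3:**
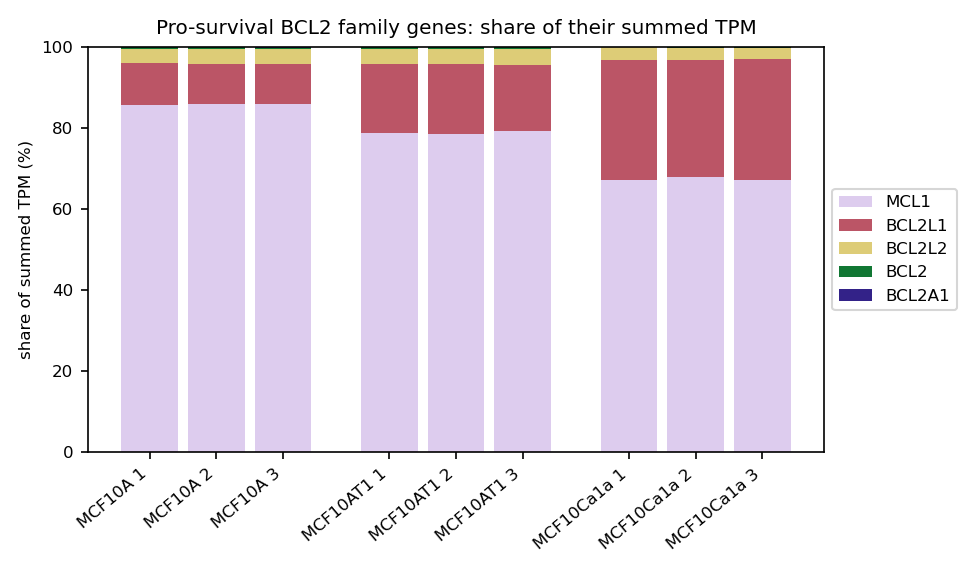
Share of the summed TPM of MCL1, BCL2L1, BCL2L2, BCL2 and BCL2A1 (vertical axis, percent) in each of the 9 libraries. The BCL2L1 band widens from 9.76 to 10.3% in MCF10A to 28.8 to 29.9% in MCF10Ca1a.

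BCL2, the founding member, was expressed at a low level and was lowest in MCF10Ca1a. BCL2 (ENSG00000171791.14; GRCh38 chr18:63123346-63320128, minus strand) was listed at 1.39, 1.22 and 1.14 TPM in MCF10A, 1.48, 1.51 and 1.56 TPM in MCF10AT1, and 0.445, 0.507 and 0.436 TPM in MCF10Ca1a. No MCF10Ca1a library reached the level of any library of the other lines. BCL2 fell by 1.45 on the log2 scale, or 2.74-fold, in MCF10Ca1a against MCF10A (SE 0.110, adjusted p 2.123e-08 by edgeR), and by 1.96 in MCF10Ca1a against MCF10AT1 (SE 0.108, adjusted p 9.071e-10 by edgeR). MCF10AT1 against MCF10A gave a log2 change of 0.50 (SE 0.0901, adjusted p 0.0002705 by edgeR). That call is lost on log2(TPM + 0.1), where limma gave 0.27 (adjusted p 0.1362).

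BCL2L2, which encodes Bcl-w, shares its sequence with a readthrough transcript, so its counts are uncertain. BCL2L2 (ENSG00000129473.11; GRCh38 chr14:23298790-23311759, plus strand) was listed at 16.3, 15.9 and 14.5 TPM in MCF10A, 14.4, 14.1 and 14.9 TPM in MCF10AT1, and 13.4, 14.1 and 12.0 TPM in MCF10Ca1a. The ranges of neighbouring lines overlapped in TPM. On counts, edgeR gave a fall of 0.24 on the log2 scale in MCF10Ca1a against MCF10A (adjusted p 0.00147). It gave a fall of 0.38 in MCF10Ca1a against MCF10AT1 (adjusted p 3.71e-05), a call that limma on log2(TPM + 1) loses, with a change of -0.13 (adjusted p 0.156). Between MCF10AT1 and MCF10A the change was 0.13 (adjusted p 0.05192 by edgeR) on counts and -0.10 (adjusted p 0.2923 by limma) on log2(TPM + 1), so the direction depends on the scale. The readthrough gene BCL2L2-PABPN1, which joins BCL2L2 to its neighbour, stood at 8.43 ± 0.920, 5.66 ± 0.567 and 16.7 ± 1.12 CPM (SD, n = 3) in the 3 lines. Summed with BCL2L2 the level was 46.7 ± 1.62, 47.6 ± 1.01 and 49.0 ± 2.43 CPM (SD, n = 3), with overlapping lines. In TPM the sum was 21.2 ± 1.90, 17.8 ± 0.237 and 27.8 ± 1.37 (SD, n = 3), without overlap and highest in MCF10Ca1a, and the part of read assignment in the BCL2L2 difference was not tested.

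BCL2A1, an NF-kB target best known from blood cells, was close to absent outside MCF10A. BCL2A1 (ENSG00000140379.9; GRCh38 chr15:79960889-79971446, minus strand) had 10, 13 and 19 counts in the MCF10A libraries, against 0, 1 and 0 for MCF10AT1 and 0, 1 and 1 for MCF10Ca1a. Every MCF10A library was above every other library, yet at a level of only 0.448 to 0.600 TPM. Scaled for library size, the summed counts of 42 in MCF10A against 1 in MCF10AT1 gave a ratio of 42.2 (95% exact interval 7.17 to 1705), and against 2 in MCF10Ca1a a ratio of 11.0 (2.85 to 93.5). These intervals cover counting error only. BCL2A1 was called lower by edgeR in both lines against MCF10A. It passed the count filter through MCF10A alone and had to differ to be tested, so these calls add no evidence. Between MCF10Ca1a and MCF10AT1 the adjusted p by edgeR was 0.3057. Without MCF10A replicate 2 or replicate 3 the gene falls under the count filter and has no test.

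BAK1, the only pore-forming gene in the set, was lowest in MCF10Ca1a. BAK1 (ENSG00000030110.14; GRCh38 chr6:33572547-33580293, minus strand) was listed at 37.6, 32.3 and 30.8 TPM in MCF10A, 34.9, 34.9 and 31.5 TPM in MCF10AT1, and 21.5, 20.6 and 21.4 TPM in MCF10Ca1a. MCF10A and MCF10AT1 overlapped in TPM, and MCF10Ca1a lay below both without overlap. BAK1 fell by 0.80 on the log2 scale, or 1.74-fold, in MCF10Ca1a against MCF10A (SE 0.0551, adjusted p 7.821e-09 by edgeR), and by 0.96 in MCF10Ca1a against MCF10AT1 (SE 0.0551, adjusted p 1.384e-09 by edgeR). In MCF10AT1 against MCF10A the log2 change of 0.16 (SE 0.0526, adjusted p 0.01798 by edgeR) lost its call without MCF10A replicate 2 (adjusted p 0.08501 by edgeR), without MCF10AT1 replicate 1 (0.07054) and without MCF10AT1 replicate 2 (0.0765). It is also lost on the length-scaled counts (adjusted p 0.0513 by edgeR) and on log2(TPM + 1), where the change was 0.0135 (adjusted p 0.9046 by limma). The processed pseudogene BAK1P1, which could take reads of BAK1, had between 0 and 8 counts per library.

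On counts, the 4 BH3-only genes did not share 1 direction in any of the 3 comparisons; in MCF10Ca1a against MCF10AT1 this rests on BID, whose direction turns on log2(TPM + 1). BCL2L11, which encodes BIM, a protein that binds all pro-survival members and is removed after ERK phosphorylation, was lowest in MCF10AT1. BCL2L11 (ENSG00000153094.24; GRCh38 chr2:111119378-111168447, plus strand) was listed at 6.73, 5.17 and 5.63 TPM in MCF10A, 3.82, 3.00 and 3.58 TPM in MCF10AT1, and 6.47, 6.32 and 6.28 TPM in MCF10Ca1a. MCF10AT1 lay below the other lines without overlap, and MCF10A and MCF10Ca1a overlapped in TPM. The gene fell by 0.68 on the log2 scale in MCF10AT1 against MCF10A (SE 0.0732, adjusted p 2.533e-06 by edgeR) and was 0.56 higher in MCF10Ca1a against MCF10AT1 (SE 0.0765, adjusted p 1.15e-05 by edgeR). Between MCF10Ca1a and MCF10A the change was -0.11 (adjusted p 0.1718 by edgeR) on counts and 0.11 (adjusted p 0.3522 by limma) on log2(TPM + 1). With no filter on low counts edgeR called it lower, at -0.19 (adjusted p 0.03569).

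BIK, a BH3-only protein of the endoplasmic reticulum, was also lowest in MCF10AT1. BIK (ENSG00000100290.3; GRCh38 chr22:43110748-43129712, plus strand) was listed at 16.3, 15.2 and 14.5 TPM in MCF10A, 9.58, 9.78 and 9.74 TPM in MCF10AT1, and 13.3, 14.6 and 13.2 TPM in MCF10Ca1a. Again MCF10AT1 stood apart, while the other lines overlapped in TPM. BIK fell by 0.51 on the log2 scale in MCF10AT1 against MCF10A (SE 0.0693, adjusted p 2.239e-05 by edgeR). In MCF10Ca1a the change was -0.30 against MCF10A (SE 0.0719, adjusted p 0.001681 by edgeR) and 0.21 against MCF10AT1 (SE 0.0733, adjusted p 0.01644 by edgeR). The first of these calls is lost on log2(TPM + 1), at -0.15 (adjusted p 0.06922 by limma), and the second without MCF10AT1 replicate 1 (adjusted p 0.08005 by edgeR) and without MCF10Ca1a replicate 2 (0.07158). With no filter on low counts the second change was 0.13 (adjusted p 0.3347 by edgeR).

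BID links death receptors to mitochondria after cleavage by caspase 8, and its level was nearly even. BID (ENSG00000015475.19; GRCh38 chr22:17734138-17774770, minus strand) was listed at 29.9, 29.7 and 27.4 TPM in MCF10A, 32.4, 31.7 and 28.5 TPM in MCF10AT1, and 32.7, 31.0 and 32.5 TPM in MCF10Ca1a. In TPM MCF10A overlapped MCF10AT1, and MCF10AT1 overlapped MCF10Ca1a. On counts, edgeR called all 3 comparisons, with log2 changes of 0.15 (adjusted p 0.0419), -0.21 (adjusted p 0.005692) for MCF10Ca1a against MCF10A and -0.36 (adjusted p 9.622e-05) for MCF10Ca1a against MCF10AT1. The direction of both falls turned on log2(TPM + 1), at 0.14 (adjusted p 0.0638 by limma) and 0.06 (adjusted p 0.4353 by limma), and the authors' length-scaled counts gave -0.02 (adjusted p 0.812 by edgeR) for MCF10Ca1a against MCF10A. The rise in MCF10AT1 lost its call without MCF10A replicate 1 (adjusted p 0.08455 by edgeR), MCF10A replicate 3 (0.07695), MCF10AT1 replicate 1 (0.1453) or MCF10AT1 replicate 2 (0.1468). It was also lost without MCF10Ca1a replicate 1 (0.05786) and MCF10Ca1a replicate 3 (0.05379), which are in neither line compared. On log2(TPM + 1) the rise was 0.0852 (adjusted p 0.2934 by limma). Its call was lost with DESeq2 size factors (0.05113 by edgeR), on counts thinned to the smallest library (0.1097 by edgeR) and in the DESeq2 Wald test (0.0725).

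BMF, which is held at the cytoskeleton through dynein light chain 2 until released, was the family gene with the largest fitted rise in MCF10Ca1a and also the rarest transcript in MCF10A. BMF (ENSG00000104081.14; GRCh38 chr15:40087890-40108892, minus strand) had 11, 8 and 7 counts in the MCF10A libraries, against 9, 18 and 10 for MCF10AT1 and 30, 31 and 29 for MCF10Ca1a, where the libraries were smaller. MCF10Ca1a was above both other lines in every library, and MCF10A and MCF10AT1 overlapped. BMF rose by 2.69 on the log2 scale in MCF10Ca1a against MCF10A (SE 0.319, adjusted p 2.721e-06 by edgeR) and by 2.17 in MCF10Ca1a against MCF10AT1 (SE 0.303, adjusted p 1.556e-05 by edgeR). From the summed counts of 90 and 26 the ratio to MCF10A was 6.63 (95% exact interval 4.24 to 10.7). Between MCF10AT1 and MCF10A the log2 change was 0.52 (SE 0.362, adjusted p 0.2277 by edgeR). Even in MCF10Ca1a the level was 0.237 ± 0.0166 TPM (SD, n = 3), below all other members but BCL2A1.

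BCL2L1 and MCL1 are known for splice forms that act against survival, so their transcripts were read apart. The short form of BCL2L1, Bcl-xS (BCL2L1-202, 170 codons), lacks 189 coding bases of the long form Bcl-xL (BCL2L1-201, 233 codons) after coding base 376, and the reading frame is kept. The junctions are shown because they mark where the coding sequences of the forms part. They come from the GENCODE 29 transcripts on GRCh38, with the bases that the short form lacks in capitals.
BCL2L1-201 into the block: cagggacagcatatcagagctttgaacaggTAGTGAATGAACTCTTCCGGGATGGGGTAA
BCL2L1-201 out of the block: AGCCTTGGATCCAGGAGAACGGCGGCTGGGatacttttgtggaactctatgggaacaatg
BCL2L1-202 junction: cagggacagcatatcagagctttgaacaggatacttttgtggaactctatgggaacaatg

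MCL1 has 2 annotated short forms beside the long form MCL1-202 (350 codons). MCL1-201 (271 codons, Mcl-1S) lacks 248 bases after coding base 689, which shifts the reading frame, and MCL1-204 (197 codons) lacks 459 bases after coding base 110 within the first exon, in frame. Capitals again mark bases of the long form that the short form lacks.
MCL1-202 into the block missing from MCL1-201: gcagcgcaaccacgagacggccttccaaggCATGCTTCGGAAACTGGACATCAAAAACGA
MCL1-201 junction: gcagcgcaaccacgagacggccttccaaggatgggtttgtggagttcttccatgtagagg
MCL1-202 into the block missing from MCL1-204: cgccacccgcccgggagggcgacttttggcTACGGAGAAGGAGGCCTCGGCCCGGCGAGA
MCL1-204 junction: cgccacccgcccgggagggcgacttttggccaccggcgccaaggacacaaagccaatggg

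The annotated short forms were a minor part of both genes in every line, while the form of the transcripts not in the annotation is not known. Bcl-xS held 0.916, 1.86 and 1.83% of the BCL2L1 TPM in the MCF10A libraries, 0.929, 2.08 and 2.43% in those of MCF10AT1, and 0.992, 0.181 and 1.57% in MCF10Ca1a. The lines overlapped and single libraries of MCF10Ca1a differed widely. Each transcript was set against the rest of its gene, as a log2 ratio of TPM values plus 0.1, and tested with limma over the 58232 transcripts that passed the filter. For Bcl-xS the log2 ratio changed by 0.12 in MCF10AT1 against MCF10A (SE 0.707, adjusted p 0.9674 by limma), -1.16 in MCF10Ca1a against MCF10A (adjusted p 0.2796) and -1.27 in MCF10Ca1a against MCF10AT1 (adjusted p 0.2565). With a pseudocount of 1 in place of 0.1 limma called both falls, at -1.28 (adjusted p 0.01929) against MCF10A and -1.06 (adjusted p 0.04392) against MCF10AT1, so the call depends on the pseudocount. With 1 library left out the changes ranged from -1.71 to -0.37 and from -1.83 to -0.48, and were smallest without MCF10Ca1a replicate 2.

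In MCL1 the short forms held 4.17% ± 0.767 of the gene's TPM in MCF10A, 4.48% ± 0.112 in MCF10AT1 and 4.70% ± 0.547 in MCF10Ca1a (SD, n = 3). Nearly all of it was MCL1-204, at 11.7 to 17.1 TPM over the 9 libraries, with MCL1-201 at 0.515 to 1.36 TPM. Neither short form was called in the 3 comparisons, but MCL1-201 is called in MCF10Ca1a against MCF10A with a pseudocount of 1 (0.58, adjusted p 0.01774 by limma) and without MCF10Ca1a replicate 3 (1.16, adjusted p 0.007631), and against MCF10AT1 without that library (1.0, adjusted p 0.01619). The long form held 81.7, 76.7 and 75.6% in the MCF10A libraries, 77.6, 77.7 and 75.1% in those of MCF10AT1, and 84.7, 85.8 and 88.0% in MCF10Ca1a. MCF10Ca1a was the highest line without overlap.

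By limma the log2 ratio of MCL1-202 to the rest of its gene was 0.81 higher in MCF10Ca1a than in MCF10A (SE 0.202, adjusted p 0.02516) and 0.92 higher than in MCF10AT1 (SE 0.202, adjusted p 0.01962). The transcripts called with a lower ratio were MCL1-203 and ENST00000676522.1. MCL1-203, annotated without a coding sequence, had log2 ratio changes of -0.90 and -0.99 (adjusted p 0.02355 and 0.02081 by limma). ENST00000676522.1 had changes of -1.63 and -1.67 (adjusted p 0.001665 and 0.002168 by limma). It is not in the annotation used here, so its form is not known. Against MCF10A the MCL1-202 and MCL1-203 calls are lost without MCF10A replicate 2 or 3 or without MCF10Ca1a replicate 2 or 3, with adjusted p up to 0.08036 and 0.07558 by limma, and where only these lines are fitted (0.06841 and 0.06264). Against MCF10AT1 the MCL1-202 call is lost without any 1 MCF10AT1 library or without MCF10Ca1a replicate 3 (adjusted p up to 0.06712), and the MCL1-203 call without MCF10AT1 replicate 1 or 3 or MCF10Ca1a replicate 3 (up to 0.07027). The ENST00000676522.1 calls held under each omission, with adjusted p of at most 0.01054 by limma. In TPM the long form was at 282 ± 38.5, 228 ± 8.18 and 254 ± 4.75 (SD, n = 3). Of 6 MCL1 transcripts tested, 0 were called in MCF10AT1 against MCF10A, where 1.89% of all transcripts were, and 3 in each comparison with MCF10Ca1a, where 24.0% (against MCF10A) and 18.6% (against MCF10AT1) were. At an unadjusted p under 0.05 limma likewise gave 0 of these 6 in MCF10AT1 against MCF10A.

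**Figure D4:**
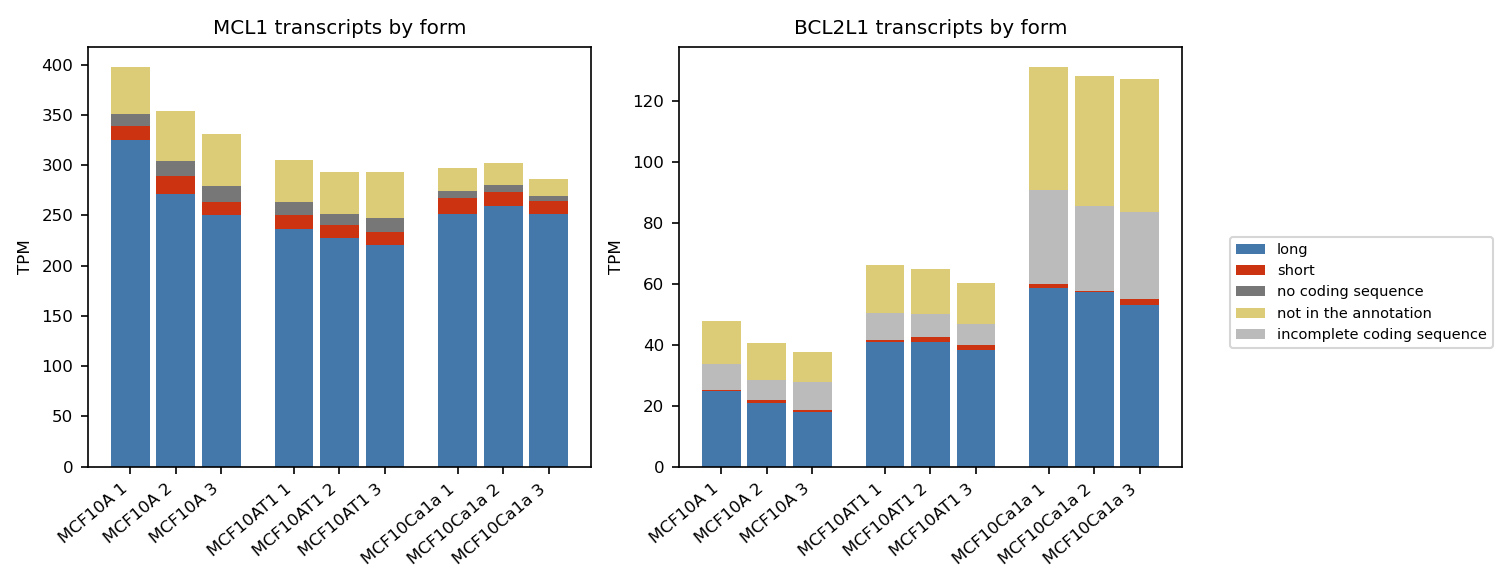
TPM of MCL1 (left) and BCL2L1 (right) in each of the 9 libraries, stacked by the form of the transcript in GENCODE 29; axes start at 0 and differ between the panels. The short forms (red) stay thin in every library, and the long form of MCL1 takes 84.7 to 88.0% in MCF10Ca1a.

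The long forms BCL2L1-201 and BCL2L1-203, which have the same coding sequence, rose in TPM from 21.3 ± 3.49 in MCF10A to 40.2 ± 1.47 in MCF10AT1 and 56.4 ± 2.85 in MCF10Ca1a (SD, n = 3). As a share of the gene they held 50.5% ± 2.34, 62.9% ± 0.955 and 43.7% ± 1.72 (SD, n = 3), so the share was highest in MCF10AT1. Transcripts with an incomplete coding sequence held 19.5, 12.2 and 22.5%, and 6 transcripts not in the annotation held 28.5, 23.1 and 32.8%.

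The log2 ratio of BCL2L1-201 to the rest of the gene fell by 0.79 in MCF10Ca1a against MCF10A (SE 0.164, adjusted p 0.01249 by limma) and by 1.18 against MCF10AT1 (SE 0.164, adjusted p 0.003249 by limma). BCL2L1-203 moved the other way against MCF10A, by 0.73 (SE 0.162, adjusted p 0.01665 by limma), a call lost without MCF10A replicate 2 (0.67, adjusted p 0.05895), and its ratio changed by -0.04 against MCF10AT1 (adjusted p 0.902 by limma). Of 13 BCL2L1 transcripts tested, 1 was called in MCF10AT1 against MCF10A, 5 in MCF10Ca1a against MCF10A (4 higher, 1 lower) and 3 in MCF10Ca1a against MCF10AT1 (2 higher, 1 lower), where 1.89%, 24.0% and 18.6% of all transcripts were called. Of the 4 higher calls against MCF10A, those of ENST00000677194.1, BCL2L1-206 and ENST00000677494.1 are each lost without MCF10A replicate 2, MCF10A replicate 3 or MCF10Ca1a replicate 1, among other omissions, with adjusted p up to 0.1252, 0.1361 and 0.05965 by limma. With a pseudocount of 1 the direction of ENST00000677194.1 turned, from 1.87 to -0.42. The 2 higher calls against MCF10AT1, ENST00000678671.1 and ENST00000677494.1, also depend on single libraries (adjusted p up to 0.1033 and 0.103). The call in MCF10AT1 against MCF10A was ENST00000678563.1, with a log2 ratio change of -0.94 (adjusted p 0.04726 by limma), and that call is lost under each omission of 1 of the 9 libraries (adjusted p 0.06111 to 0.1432). Many of these transcripts share most of their bases, and how firmly reads were assigned between them was not used here.

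The BCL2L1 transcripts start in more than 1 place, and RefSeq (GRCh38.p14) gives start windows for the gene that can be set beside them. The windows are shown from 250 bases before the start to 30 bases from it, on the minus strand of chromosome 20, with matches to any of 7 motifs in capitals. The first, chr20:31722839-31723118, holds 1 GC box (GGGCGG, here on the opposite strand). The second, chr20:31723934-31724213, lies upstream of it and holds TATAAA at 2 places and the ETS motif CCGGAAG.
BCL2L1 window 1: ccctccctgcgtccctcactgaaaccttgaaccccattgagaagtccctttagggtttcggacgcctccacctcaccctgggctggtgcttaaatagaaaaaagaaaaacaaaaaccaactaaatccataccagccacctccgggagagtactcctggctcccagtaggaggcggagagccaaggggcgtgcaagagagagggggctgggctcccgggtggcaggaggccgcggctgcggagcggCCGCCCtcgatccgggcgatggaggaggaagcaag
BCL2L1 window 2: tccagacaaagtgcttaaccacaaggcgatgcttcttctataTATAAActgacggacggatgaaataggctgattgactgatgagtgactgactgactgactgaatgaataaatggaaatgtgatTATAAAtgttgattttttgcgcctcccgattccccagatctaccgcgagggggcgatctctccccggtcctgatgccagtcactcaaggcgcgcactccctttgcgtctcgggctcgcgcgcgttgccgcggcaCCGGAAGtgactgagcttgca

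The annotated transcripts starting in window 1, which include BCL2L1-201 and Bcl-xS, summed to 21.5, 18.2 and 16.7 TPM in MCF10A, 33.9, 34.6 and 32.1 TPM in MCF10AT1, and 49.8, 50.9 and 43.7 TPM in MCF10Ca1a. Those starting in window 2 summed to 6.10, 6.77 and 7.31 TPM in MCF10A, 3.46, 4.09 and 3.10 TPM in MCF10AT1, and 13.1, 13.4 and 13.0 TPM in MCF10Ca1a. The lines did not overlap in either sum, but their order differed, since the upstream sum was lowest in MCF10AT1 and the other rose from line to line. The 3 annotated transcripts that start outside both windows, among them BCL2L1-203, rose from 4.53 ± 1.54 to 12.0 ± 1.0 and 25.3 ± 3.54 TPM (SD, n = 3). All 3 transcripts of window 2 have incomplete coding sequences, and these sums were given no test.

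Of the members, 7 of 10 matched a RefSeq window, with 13 windows in all. The other motifs searched on both strands were AP-1 (TGANTCA), STAT (TTCNNNGAA), E-box (CACGTG) and NF-kB. Some of the 13 overlap each other. The GC box was in 8 of the 13 windows and in 45.0% of the 35116 windows of all genes, TATAAA in 2 of 13 (BCL2A1 and BCL2L1; 11.5% of all windows) and CCGGAAG in 1 (BCL2L1; 10.3%). The STAT motif was in 1 window, of BCL2A1 (7.66% of all), the NF-kB motif in 1, of BCL2L11 (5.68%), and the E-box in 2, both of BID (7.26%), while AP-1, in 7.71% of all windows, was in 0 of the 13. These are matches of letters within 300 bases, and no binding was measured.

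The genes around BCL2L1 moved in both directions. Within 500 kb of it 10 other genes were tested, and in MCF10Ca1a against MCF10A 5 of them were called higher and 4 lower, near the 39.0% and 41.9% of all genes, with a median log2 change of 0.17. In MCF10AT1 against MCF10A 1 was called higher and 5 lower, where 29.8% and 31.8% of all genes were. The median of the 10 was -0.18, and none had a larger change than BCL2L1. In MCF10Ca1a against MCF10AT1 5 were higher and 4 lower, where 38.0% and 40.3% of all genes were, and 4 neighbours lay above BCL2L1. TPX2, the next gene beyond the BCL2L1 start, fell by 1.55 on the log2 scale in MCF10Ca1a against MCF10A (adjusted p 6.612e-10 by edgeR), and ID1, on the other side, rose by 0.83 (adjusted p 3.011e-09 by edgeR). Both were chosen after their values were seen. ABALON, annotated on the opposite strand over the BCL2L1 start, had between 1 and 11 counts per library. It was the 1 neighbour above BCL2L1 in MCF10Ca1a against MCF10A, with a log2 change of 2.60. ABALON passed the filter on low counts through MCF10Ca1a alone, so it had to differ to be tested at all. It is among the 5 called higher in both comparisons with MCF10Ca1a, and its calls add no evidence. Over the 456 genes of chromosome 20 that were tested the median log2 change was 0.39 in MCF10Ca1a against MCF10A, above the median of -0.05 over all genes, and 76 of them lay above BCL2L1. In MCF10AT1 against MCF10A the chromosome 20 median was -0.0287 (all genes -0.00383), with 63 above BCL2L1. In MCF10Ca1a against MCF10AT1 it was 0.415 (all genes -0.04), with 165 above BCL2L1. DNA copy number was not measured.

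Of 14 further BCL2 relatives 11 were tested, and BCL2L10, BCL2L14 and BCL2L15 had at most 2, 5 and 14 counts in a library. In MCF10Ca1a against MCF10A 4 of the 11 were called higher, 4 lower and 3 not called, near the share of all genes. BBC3, which encodes the p53 target PUMA, rose from 2.87 ± 0.573 to 11.7 ± 1.38 TPM (SD, n = 3), a log2 change of 1.90 (SE 0.128, adjusted p 6.16e-09 by edgeR). BAD, a BH3-only protein that growth factor signals silence by phosphorylation, fell from 48.6 ± 3.40 to 9.93 ± 1.01 TPM (SD, n = 3), a log2 change of -2.41 (SE 0.0700, adjusted p 9.805e-13 by edgeR). HRK, a BH3-only gene known from neurons, fell from 0.640 ± 0.0937 to 0.0221 ± 0.00896 TPM (SD, n = 3). BAX, the second pore-forming gene, was at 84.4 ± 10.4, 120.0 ± 6.43 and 105 ± 5.18 TPM in the 3 lines (SD, n = 3), with a log2 change of 0.08 (adjusted p 0.2103 by edgeR) in MCF10Ca1a against MCF10A.

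Genes downstream of the mitochondria moved in both directions, and the counts of this and the following lists in MCF10Ca1a against MCF10A stand beside 39.0% higher and 41.9% lower among all genes. Of 11 apoptosome and caspase genes 4 were called higher and 6 lower in MCF10Ca1a against MCF10A, with a median log2 change of -0.58. CASP9, the initiator caspase of the apoptosome, rose by 1.87 on the log2 scale (SE 0.0720, adjusted p 1.563e-11 by edgeR) and HTRA2, a mitochondrial protease that counters IAP proteins, by 0.75 (adjusted p 4.793e-09). The executioner caspase gene CASP6 fell by 1.21 (adjusted p 1.091e-10 by edgeR). Of 6 IAP genes tested 3 were called higher and 2 lower. BIRC3, an NF-kB target, was at 60.6 ± 0.514 TPM in MCF10A and 252 ± 14.6 TPM in MCF10Ca1a (SD, n = 3), and BIRC6 rose by 1.35 (adjusted p 1.36e-10 by edgeR). BIRC5, which encodes survivin and is expressed in dividing cells, was at 129 ± 1.51 and 21.6 ± 1.10 TPM (SD, n = 3). NAIP fell by 0.62 (adjusted p 0.01136 by edgeR), a call that is lost without MCF10Ca1a replicate 3, at -0.44 (adjusted p 0.06109).

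Of 13 death receptor pathway genes tested 5 were called higher and 7 lower in MCF10Ca1a against MCF10A. The TRAIL decoy receptor genes moved apart, with TNFRSF10D higher by 2.03 on the log2 scale (SE 0.0619, adjusted p 1.554e-12 by edgeR) and TNFRSF10C lower, at a log2 change of -3.25 (SE 0.232, adjusted p 1.171e-08 by edgeR). TNFSF10, which encodes TRAIL, fell by 2.35 (adjusted p 2.116e-09 by edgeR) and CASP10, an initiator caspase, rose by 1.92 (adjusted p 3.798e-09). In MCF10AT1 against MCF10A 10 of these 13 genes were lower and 1 higher, where 31.8% and 29.8% of all genes were called in those directions. There the apoptosome and caspase list had 6 lower and 3 higher of 11, and the IAP list 3 and 1 of 6. The further BCL2 relatives had 3 lower and 5 higher of 11. The lists given next had 1 lower and 3 higher of 7 (MCL1 and BH3 protein turnover) and 0 lower and 3 higher of 4 (channels).

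Of 7 genes tested that act on MCL1 and BH3 proteins after translation, 4 were called higher and 3 lower in MCF10Ca1a against MCF10A. USP9X, a deubiquitinase that stabilises MCL1, rose by 1.43 on the log2 scale (SE 0.0630, adjusted p 6.16e-11 by edgeR), and HUWE1, a ubiquitin ligase for MCL1, rose by 0.99 (SE 0.0831, adjusted p 7.088e-08 by edgeR). USP13, another deubiquitinase, fell by 1.35 (adjusted p 7.17e-11 by edgeR). DYNLL1, the light chain that tethers BIM, was at 736 ± 77.0, 1067 ± 52.2 and 236 ± 2.74 TPM in the 3 lines (SD, n = 3). Of 4 outer membrane channel genes 2 were called, both lower, with VDAC3 at a log2 change of -1.01 (adjusted p 1.497e-08 by edgeR) and MTCH2, a receptor for truncated BID, at -0.40 (adjusted p 1.34e-05). The MTCH2 call is lost on log2(TPM + 1), at -0.10 (adjusted p 0.121 by limma).

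**Figure D5:**
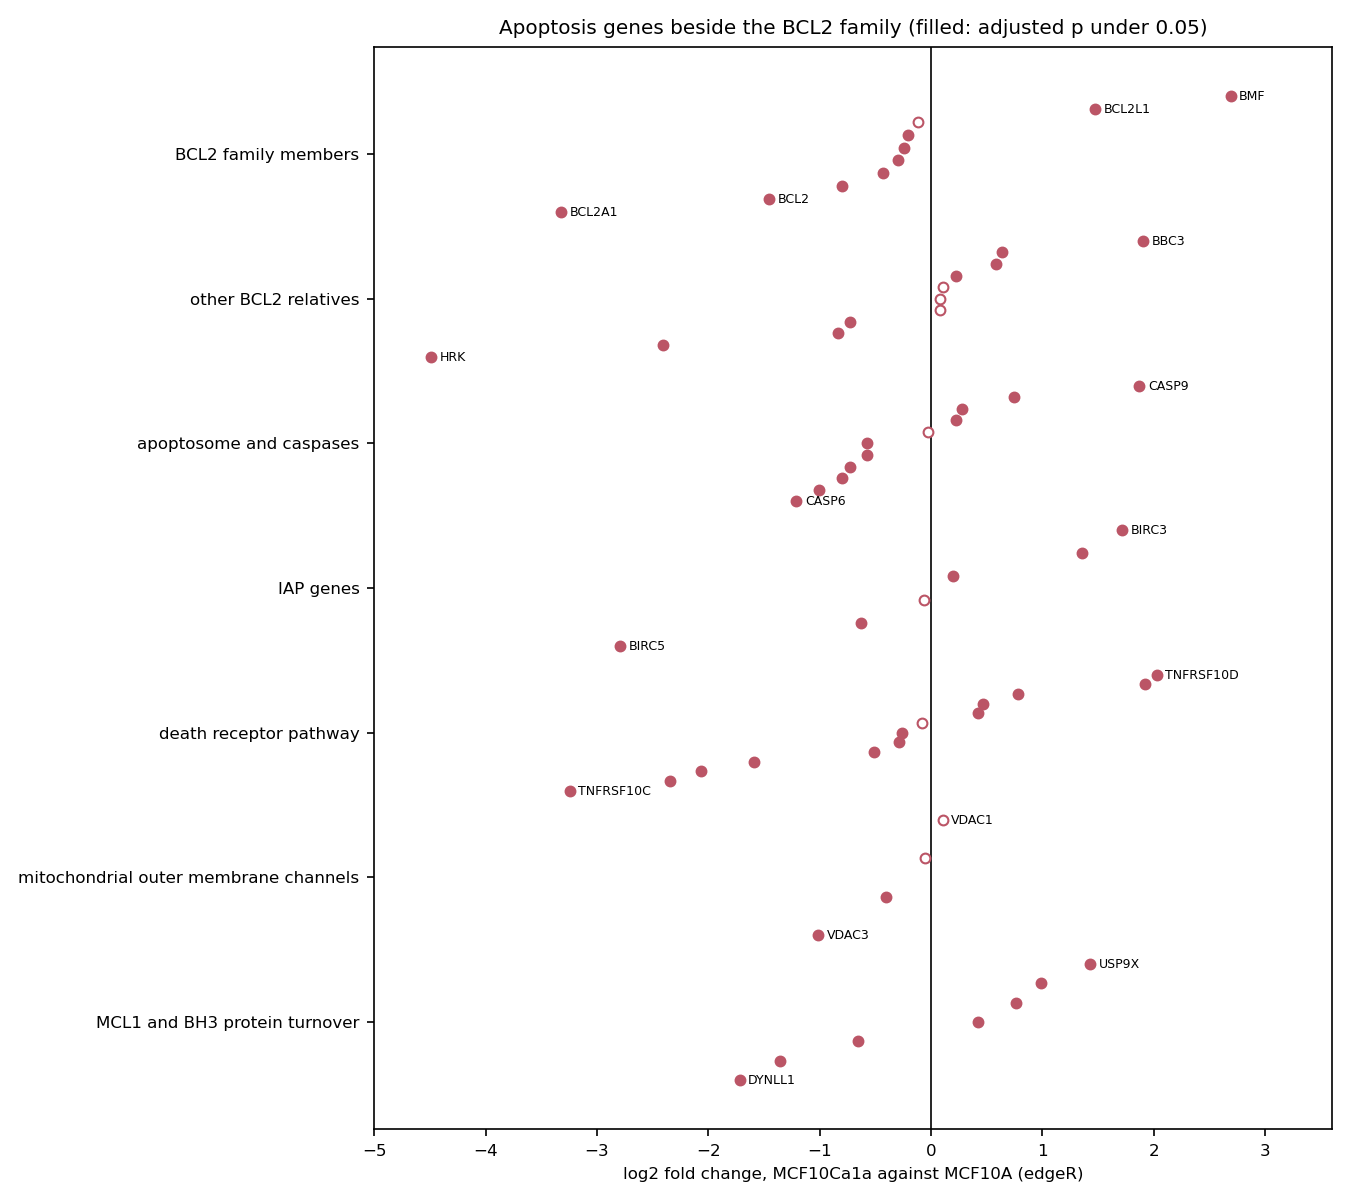
Fitted log2 fold change in MCF10Ca1a against MCF10A (horizontal axis) for the 10 members and 6 lists of apoptosis genes (rows, genes sorted by change); filled points have an adjusted p under 0.05 by edgeR, and the lowest and highest genes of each row are named. Every list but the channel genes has called genes on both sides of 0.

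For the 4 members with at least a 2-fold change between line means, the genes with the most similar pattern were sought among 17909 other genes. The measure was the root mean square difference of log2 CPM, centred over the 9 libraries. Genes without a symbol were passed over, so the genes named are the nearest with a symbol. For BCL2L1 they were NEDD4L, a ubiquitin ligase, with a difference of 0.0179, and SPINT2, a protease inhibitor, with 0.0432. For BCL2 they were the receptor tyrosine kinase gene ROS1 (0.0699) and the transcriptional regulator gene CITED2 (0.0899). The matches were looser for the low-count genes, with LINC01698 (0.249) and MEI1 (0.250) for BCL2A1 and CCN5 (0.181) and LINC02511 (0.217) for BMF. With 3 lines of 3 libraries each, such likeness rests on 3 line levels.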

How the data were processed

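Polyadenylated RNA was made into stranded libraries, per the labels' protocols. Salmon and hg38 are named in the submitters' processing notes; the annotation release is not given in the sources used here. The authors deposited estimated counts per gene (also as length-scaled and scaled tables) and TPM per gene and transcript, and no column was left unused for want of a sample. Estimated counts as deposited were rounded. Genes kept by filterByExpr (minimum count 10, total 15; 17910 of 62666) were tested with edgeR 4.0.16 (R 4.3.3) by its quasi-likelihood test, with TMM scaling, all 9 libraries in 1 fit and Benjamini-Hochberg adjustment at 0.05. Library totals were 32.9 to 69.5 M counts, and CPM uses these totals multiplied by the TMM factors. Transcripts with a mean of 0.5 TPM or more in a line, in genes at 1 TPM or more, were tested by limma 3.58.1 on log2((TPM + 0.1)/(TPM of the rest of the gene + 0.1)). Exact binomial intervals are 95% and cover counting error only. Positions come from GENCODE 29 (GRCh38) by unversioned identifiers (92.9% of genes matched); 4 MCL1 and 6 BCL2L1 transcripts are not in it. Alternatives were DESeq2 1.42.0 (size factors, Wald test), no filter, both scaled tables, thinning, limma on log2(TPM + 1) or + 0.1, only the lines compared, a replicate block and each library left out. Tests were also run on simulated data built from the fits. Members, lists and the rule for named genes (members; further relatives with a called 2-fold change; the 2 largest rises and falls of each list in MCF10Ca1a against MCF10A; the 2 nearest patterns) were chosen with earlier results of these data known. Amino acid sequences were not used here. A gene that the naming rule chose and a marker are not reported here.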

Additional observations from a re-analysis of the deposited data

How the results depend on the processing

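Members called numbered 5 to 8 in MCF10AT1 against MCF10A, 7 to 10 in MCF10Ca1a against MCF10A and 6 to 9 in MCF10Ca1a against MCF10AT1 over 11 alternatives, and 5 to 8, 8 to 9 and 8 to 9 with 1 library left out; genes called numbered 8892 to 11649, 13425 to 16050 and 13104 to 15312. BCL2L1 kept its call under every alternative run, at log2 1.40 to 1.62 in MCF10Ca1a against MCF10A. On log2(TPM + 1), log2(TPM + 0.1) and log2(TPM + 1) with no filter, the direction turned for BCL2L2 in MCF10AT1 against MCF10A (-0.10, -0.11, -0.10), for BID (0.14, 0.15, 0.14) and BCL2L11 (0.11, 0.13, 0.11) in MCF10Ca1a against MCF10A, and for BID in MCF10Ca1a against MCF10AT1 (0.0577, 0.0595, 0.0577). The cause was not tested. The median of all genes on log2(TPM + 1) moved by -0.07, 0.06 and 0.13 in the 3 comparisons.

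Transcripts called were 1098 in MCF10AT1 against MCF10A, 3956 with a pseudocount of 1, 226 with the replicate block and 494 to 978 with 1 library left out. In MCF10Ca1a against MCF10A they were 13978, 22324 with a pseudocount of 1, 21346 with no filter and 9818 to 12548 with 1 left out. In MCF10Ca1a against MCF10AT1 they were 10860, 19846 with a pseudocount of 1, 17339 with no filter and 6906 to 10315 with 1 left out. Replicate numbers share only a number: deviations of same-numbered libraries correlated at -0.0597 to 0.0451, and of others at -0.0742 to 0.0955. The replicate block gave 10846, 14397 and 13917 genes, 7, 9 and 9 members, and 226, 11153 and 7834 transcripts; with it the adjusted p by limma was 0.06478 (MCL1-202) and 0.0637 (MCL1-203) in MCF10Ca1a against MCF10A, 0.05773 and 0.06166 against MCF10AT1, and 0.1519 for ENST00000678563.1 in MCF10AT1 against MCF10A.

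With a pseudocount of 1 the log2 ratio turned for BCL2L1-202 (-0.21), ENST00000677194.1 (-0.13) and ENST00000677494.1 (-0.0693) in MCF10AT1 against MCF10A, for ENST00000677194.1 (-0.42) and ENST00000678671.1 (-0.26) in MCF10Ca1a against MCF10A, and for ENST00000677194.1 (-0.29) in MCF10Ca1a against MCF10AT1; on transcript counts BCL2L1-204 turned in MCF10Ca1a against MCF10A (0.0289). With 1 library left out, ratios that crossed 0 in MCF10AT1 against MCF10A ranged from -0.0941 to 0.21 (MCL1-203), -0.000759 to 0.28 (MCL1-204), -0.21 to 0.0506 (MCL1-202), -0.16 to 0.18 (ENST00000676522.1), -0.19 to 0.51 (BCL2L1-202), -0.0317 to 0.0774 (ENST00000677494.1) and -0.0327 to 2.08 (BCL2L1-205). In MCF10Ca1a against MCF10A they ranged from -0.0859 to 0.39 (ENST00000676582.1) and -0.42 to 0.25 (BCL2L1-204), and against MCF10AT1 from -0.0701 to 0.0634 (MCL1-204), -0.11 to 0.0745 (BCL2L1-203) and -0.0543 to 0.99 (ENST00000677194.1). BCL2A1 could not be tested on thinned counts, in MCF10Ca1a comparisons fitted on 2 lines, or without MCF10A replicate 2 or 3. At this depth BCL2A1 had at most 19 counts and BMF at most 31 in a library.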
